A study of Gallus gallus with 10 samples.

Results

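TIMM13 encodes a small chaperone of the mitochondrial intermembrane space, and it is described here as 1 gene among the 29558 of a chicken magnum count table. It was found by its symbol (ENSGALG00010028368) and was chosen for its difference between the ages in these same hens. Its own levels are therefore given as a description, without a test. The genes set against it are the 16 others whose symbols start with TIMM or TOMM followed by a digit, and these were chosen by name alone.

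The magnum is the part of the hen's oviduct that lays egg white around the yolk. Whole magnum was taken from 5 broiler breeder hens (Gallus gallus) aged 50 weeks, when egg production declines, and from 5 aged 35 weeks, at the peak of production, each with an egg in the magnum. Age is the difference that the labels name between the groups, with no agent or genotype given, and they give each library a bird number of its own. The sample titles also say shell gland, but the tissue label is magnum. All 7 magnum gland markers were detected, and of 3 shell gland markers with a row, CALB1 and SPP1 had no count and OTOP2 reached at most 13 CPM.

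Library totals were small, at 188271 to 258195 counts, and the labels do not say whether the table holds all counted reads of a library. Levels and shares are therefore relative to the counts in the table. Levels are given in CPM, which are counts scaled to a common library size with TMM factors. A gene with a count of 0 may still have had up to 11.6 to 15.9 CPM in these libraries, by counting error alone. Some genes that most cells use heavily had few counts, such as GAPDH with 1 to 7 and RPL36 with 1 or 2 per library. Others had more, with 11 to 93 for ACTB and 29 to 84 for EEF1A1. The kit marks strand, but whether the counting used strand is not stated in the labels, so reads of a gene and of a partner on the other strand cannot be told apart. On the first principal component of the tested genes (24.9% of variance), replicate 4 at 50 weeks and replicates 1 and 2 at 35 weeks scored between −20.6 and −10.7, and the remaining libraries between 1.92 and 8.07. The first 3 of these are called the libraries that stood apart. An edgeR fit without them was run, and its values are given for some genes only. Marker sums and profile likeness used every library.

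Nearly all mitochondrial proteins are made in the cytosol and imported. The TOM complex is the entry gate of the outer membrane. The TIM23 complex with its motor draws proteins that carry a presequence into the matrix, and the TIM22 complex inserts carrier proteins into the inner membrane. Between the membranes the small TIM chaperones shield hydrophobic proteins in transit. TIMM13 does so as a complex with TIMM8A, and TIMM9 works with TIMM10, as known mainly from yeast and human cells. The small TIMs are themselves imported and folded by the MIA disulfide relay.

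TIMM13 lies on chromosome 28 at 1041705 to 1042291 (GRCg7b), a span of 587 bases. It had 48, 36, 54, 40 and 39 counts in the 5 hens at 50 weeks, against 121, 192, 166, 106 and 103 counts in the 5 hens at 35 weeks. Every hen at 50 weeks lay below every hen at 35 weeks, and the lowest hen at 35 weeks had 2.18 times the CPM of the highest at 50 weeks. Such a lower and separate placing was seen in 20 of 1773 tested genes (1.13%), and as TIMM13 was chosen on this contrast nothing is read from its being among them.

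On the CPM scale TIMM13 had 236, 162, 227, 155 and 169 at 50 weeks and 547, 832, 888, 514 and 550 at 35 weeks. The means were 190 ± 38.5 CPM in the older and 666 ± 179 CPM in the younger hens (SD, n = 5 each), so the mean was 3.51-fold lower at 50 weeks. The log2 fold change fitted by edgeR was −1.81 (SE 0.21). Of the 1773 genes with enough counts, 3 had a more negative fitted fold change, each with an SE of 0.70 or more. In the authors' deposited table, whose fold changes run 35 weeks over 50 weeks, TIMM13 has a log2 fold change of 1.81 (SE 0.24). Without the 3 libraries that stood apart the log2 fold change was −1.71.

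Within an age the hens differed from each other. At 50 weeks replicates 1 and 3 were above the other 3, and at 35 weeks replicates 2 and 3 were above the other 3. The coefficient of variation was 20.3% at 50 weeks and 26.8% at 35 weeks. Counting error alone would give about 15.2% at 50 weeks and 8.52% at 35 weeks at these mean counts. The spread between hens at 35 weeks was thus wider than counting error, while at 50 weeks it was closer to it.

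**Figure D1:**
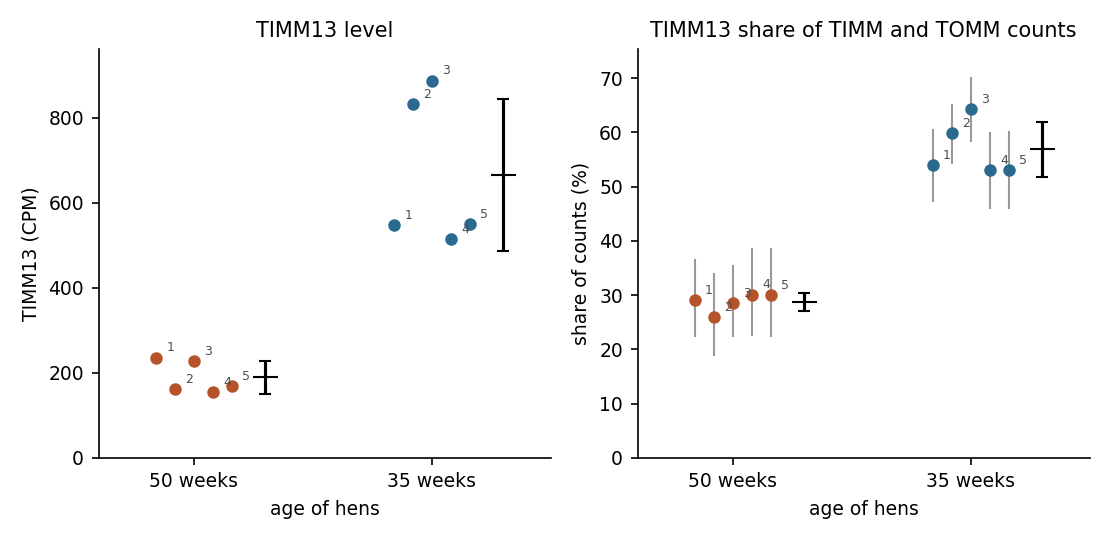
TIMM13 by hen at 50 weeks (left in each panel) and 35 weeks. The left panel gives CPM and the right panel gives TIMM13 as a percentage of the counts of the 17 TIMM and TOMM genes with a row in the same library, with exact 95% binomial intervals in grey. Each point is 1 hen, numbered by replicate, and black bars are the mean ± SD over 5 hens. In both panels all 5 hens at 50 weeks sit below all 5 at 35 weeks, and both panels hold the counts on which TIMM13 was chosen.

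The share of a library's counts that fell on TIMM13 needs no scaling factor. It was 0.0155% to 0.024% at 50 weeks and 0.0503% to 0.0868% at 35 weeks. The exact (Clopper-Pearson) 95% intervals of single libraries reached up to 0.0313% at 50 weeks and started at 0.0412% at 35 weeks. They show the counting precision of each library and are no test of the ages, on which the gene was chosen. These intervals cover counting error only, and the labels mention no molecular identifiers.

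The summed counts of the rest of the family overlapped between the ages. A lower and separate placing was rare, seen in 20 of 1773 tested genes (1.13%), so the overlap does not mark this family out. The 16 other TIMM and TOMM genes together had 117, 103, 135, 93 and 91 counts at 50 weeks, against 103, 129, 92, 94 and 91 counts at 35 weeks. In CPM their sums were 472 ± 98.2 at 50 weeks and 492 ± 40.6 at 35 weeks (SD, n = 5 each), and the ages overlapped. TIMM13 therefore made up 28.7% ± 1.70 of the counts of these 17 genes at 50 weeks and 56.9% ± 5.05 at 35 weeks. The share lay between 25.9% and 30.1% in the 5 older hens and between 53% and 64.3% in the 5 younger hens. It holds the counts on which TIMM13 was chosen, so its separation of the ages is no further result. TIMM8B, TIMM23, TIMM29, TIMM50, TOMM20L, TOMM34 and TOMM40 were not analysed here under these symbols, so core subunits are missing from the sum. TIMM17A was not analysed under its symbol either, but TIMM17B, which the RefSeq table also lists as TIMM17A, is in the sum. Since counts are not divided by transcript length, this share follows TIMM13 across ages and does not rank its level against that of other genes.

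Most of these 16 genes were thinly counted. The filter of edgeR (filterByExpr, minimum count of 10) kept TIMM17B, TOMM6 and TOMM7. None of these 3 had an edgeR quasi-likelihood p that stayed under 0.05 after adjustment, beside 0.0564% of all 1773 tested genes. That share is TIMM13 alone, which was chosen on this contrast, so nothing is read from its place there. None of the 3 had an unadjusted p under 0.05. DESeq2 called 0 of the 16 (background 0.101%) and limma-voom with sample weights 0 of 3 (0.677%). In DESeq2 any gene without an adjusted p was counted as not called, in the family and in the background. Members such as TIMM10B, with 1 count in all, could hardly have been called. With a looser filter that asked for 5 or more libraries with at least 1 CPM, edgeR called 0 of 12 (0.506%). A single count was more than 1 CPM in every library, so this filter asked only for a count above 0 in 5 or more. Of the 3 genes 2 had a negative fold change (1 with library totals as the only scaling), with a median of −0.04, beside 49.1% negative and a median of 0.0065 over all tested genes. With the looser filter 7 of the 12 were negative, with a median of −0.13, beside 50.2% and −0.0033 over all 7900 genes in that fit.

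Among the other small TIMs, TIMM8A, the partner of TIMM13, had 8, 6, 16, 9 and 9 counts at 50 weeks and 13, 10, 8, 10 and 11 counts at 35 weeks. The ages overlapped, and the means were 41.5 ± 15.3 CPM in the older and 50.4 ± 7.92 CPM in the younger hens. Its log2 fold change in the looser fit was −0.25 (SE 0.40). For each count of TIMM8A there were 3.38 to 6 counts of TIMM13 in the older hens and 9.31 to 20.8 in the younger hens. This ratio too holds the counts on which TIMM13 was chosen. TIMM10 had 8, 7, 10, 7 and 5 counts at 50 weeks and 7, 11, 6, 5 and 5 counts at 35 weeks, and its looser fit gave 0.0073 on the log2 scale (SE 0.46). Neither gene separated the ages. TIMM9, which joins TIMM10 in its chaperone complex, had 1 to 3 counts at 50 weeks and 1 to 7 at 35 weeks (−0.30, SE 0.65). TIMM10B, which tethers small TIMs to the TIM22 complex, had 1 count in all 10 libraries.

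In the inner membrane translocases, TIMM17B, a channel subunit of the TIM23 complex that the RefSeq table also lists as TIMM17A, had 29, 27, 32, 26 and 18 counts at 50 weeks. At 35 weeks it had 26, 36, 18, 21 and 22 counts. The means of 115 ± 26.3 CPM in the older and 118 ± 23.4 CPM in the younger hens lay well within the spread between hens (log2 fold change −0.04, SE 0.23, adjusted p = 0.975 by edgeR, with a log2 fold change of 0.0054 when scaled by library totals). TIMM22, the channel of the carrier translocase, had 7, 7, 7, 7 and 3 counts at 50 weeks and 8, 17, 10, 7 and 5 at 35 weeks. Its mean was lower in the older hens but the ages overlapped (log2 fold change −0.70, SE 0.44, looser fit). TIMM23B had 0 to 2 counts per library, TIMM21 0 or 1, and the motor anchor TIMM44, which also lies on chromosome 28, 0 to 4.

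In the outer membrane, TOMM6, a small stabilising subunit of the gate, had 37, 21, 22, 15 and 21 counts at 50 weeks and 20, 22, 13, 22 and 22 at 35 weeks (log2 fold change 0.10, SE 0.29, adjusted p = 0.951 by edgeR). TOMM7, another small subunit, had 14, 18, 17, 13 and 10 counts at 50 weeks and 18, 14, 20, 17 and 16 at 35 weeks. Its means were 63 ± 15.7 CPM in the older and 83.4 ± 16.4 CPM in the younger hens (log2 fold change −0.40, SE 0.26, adjusted p = 0.655 by edgeR). The ages overlapped in both genes. The receptor gene TOMM70 had 7, 6, 14, 6 and 14 counts at 50 weeks and 3, 2, 6, 5 and 7 at 35 weeks, so its mean was higher in the older hens (0.86, SE 0.46, looser fit, adjusted p = 0.774 by edgeR). TOMM5, TOMM20, TOMM22 and TOMM40L had 0 to 5 counts per library. In the looser fit TOMM22 was at 1.26 (SE 0.81) and TOMM5 at −0.29 (SE 0.84).

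**Figure D2:**
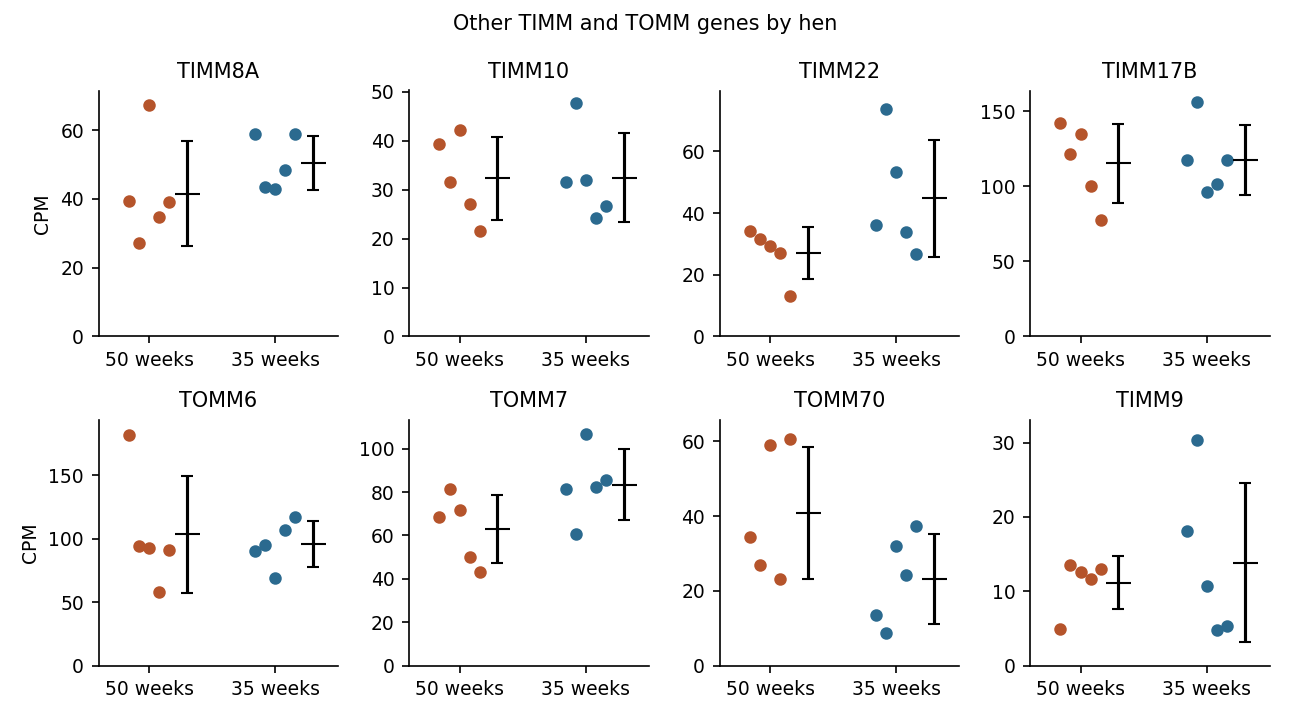
CPM by hen (points) of 8 other TIMM and TOMM genes at 50 weeks (left) and 35 weeks (right), with the mean ± SD over 5 hens in black. The ages overlap in all 8 panels.

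The errors of these genes limit what can be said of a shared fall, here taken as one as large as that of TIMM13. In the looser fit TIMM13 itself was at −1.79 (SE 0.21). In 10 of the 12 other genes, the log2 fold change minus 2 SE was still above the −1.79 of TIMM13. This bound was −0.57 for TIMM17B, −0.48 for TOMM6, −1.05 for TOMM7, −1.06 for TIMM8A, −0.91 for TIMM10 and −1.59 for both TIMM22 and TIMM9. For TIMM23B (−2.66) and TOMM5 (−1.97) it reached below, so that a fall of the size seen in TIMM13 was not resolvable at this depth. TIMM13 has an error of its own, and its 2 SE range in this fit was −2.21 to −1.37. The bounds of TIMM22, TIMM9 and TOMM40L (−1.70) lay inside that range, so for them too such a fall was not clearly resolved. The difference between TIMM13 and each of these genes was not tested, since TIMM13 was picked for its fold change. For the same reason −1.79 may overstate its fall, and it is a lenient mark to set other genes against. The bounds of all 12 genes were negative, so a smaller fall shared with TIMM13 was not resolved in any of them.

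**Figure D3:**
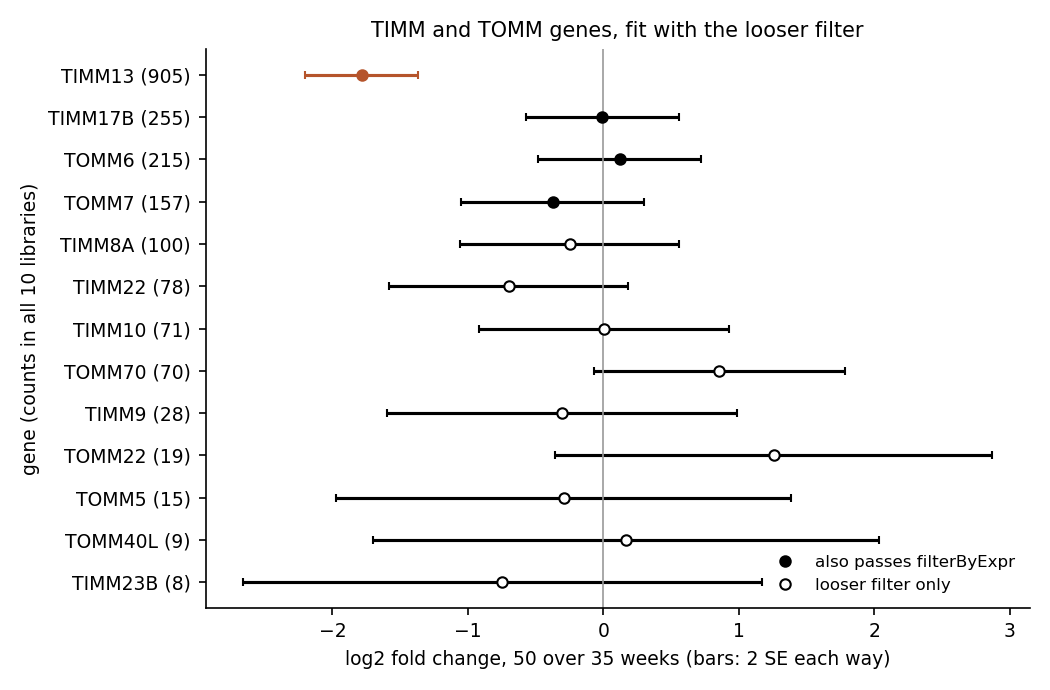
Log2 fold change at 50 over 35 weeks (horizontal axis) of TIMM13 and the 12 other TIMM and TOMM genes that the looser filter kept, with bars of 2 SE each way and the counts over all 10 libraries after each name. TIMM13 lies at −1.79, and the intervals of all 12 other genes include 0.

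The wider import pathway was described with 10 lists written with earlier results of these data known. Of their 100 symbols 82 had a row, and apart from TIMM13 there were 81 genes, of which edgeR's filter kept 16. None had an adjusted p under 0.05, beside 0.0564% of all tested genes, and 2 had an unadjusted p under 0.05, AGK with a positive and GRPEL1 with a negative fold change. That is near the background, since 186 of the 1773 tested genes (10.5%) had such a p. Of the 16, 5 were negative and 11 positive, with a median log2 fold change of 0.10, and with the looser filter 29 of 60 were negative. By list, the looser fit had 7 of 8 genes of the TIM23 translocase and motor negative, with a median of −0.43, beside 50.2% and −0.0033 over all genes in that fit, and none of the 8 passed. Negative counts were 8 of 13 for carriers, 3 of 10 for CX9C proteins, 1 of 7 for presequence processing, and 2 of 6 each for the TOM complex and the matrix chaperones. In the lists of 3 or fewer fitted genes they were 2 of 3 for the small TIMs, 1 of 3 for SAM, 1 of 2 for TIM22 and 2 of 2 for MIA.

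AGK, a lipid kinase that in human cells is also a subunit of the TIM22 complex, had the largest fold change of the 16. It had 3685, 3919, 3007, 2245 and 2900 CPM at 50 weeks, against 2282, 1517, 1898, 1672 and 2351 CPM at 35 weeks. Replicate 4 at 50 weeks lay below replicates 1 and 5 at 35 weeks, and the other 4 older hens lay above all 5 younger ones. On the log2 scale this was a fold change of 0.70 (SE 0.18, adjusted p = 0.176 by edgeR). With the looser filter it was 0.72 (SE 0.16) and passed (adjusted p = 0.0025 by edgeR), as it did in DESeq2 (0.71, adjusted p = 0.043) and limma-voom with sample weights (0.76, adjusted p = 0.0444). Between the main and the looser edgeR fit the fold change and SE moved little, while the unadjusted p went from 0.0014 to 4.7e-06. The smaller p is thus no sign of a larger difference between the ages. AGK also passed without any filter (background 0.228%), without replicate 4 at 50 weeks (0.654%) and without the 3 libraries that stood apart (2.35%). Over its 18 alternative fits the adjusted p ranged between 0.0025 and 0.426, and these 6 were under the threshold. The fold change of AGK was positive in its main fit and all 18 alternatives, which reuse the same hens.

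GRPEL1, which releases nucleotide from the mitochondrial HSP70 of the TIM23 motor, had 68.7, 63.1, 84.2, 58 and 86.6 CPM at 50 weeks and 113, 143, 118, 92.1 and 85.5 CPM at 35 weeks. The ages overlapped through replicate 5 of each alone. The log2 fold change came to −0.61 (SE 0.24, adjusted p = 0.355 by edgeR). Without the 3 libraries that stood apart it was −0.37 (SE 0.29, adjusted p = 0.623 by edgeR). The other tested member of the TIM23 list besides TIMM17B, ROMO1, was at 0.37 (SE 0.33). HSPA9, the motor HSP70 itself, had 0 to 6 counts per library.

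The machinery that folds and inserts, or receives, the small TIMs was mostly below the filter. CHCHD4, the oxidoreductase of the MIA relay that folds TIMM13 and its relatives, had 5, 7, 4, 8 and 7 counts at 50 weeks and 5, 1, 4, 11 and 7 at 35 weeks (log2 fold change −0.0057, SE 0.50, looser fit). GFER, which reoxidises it, had 0 or 1 count per library. CMC1, a protein of the twin CX9C class that the relay also folds, was counted well. Its mean was 685 ± 67.8 CPM in the older and 654 ± 107 CPM in the younger hens (log2 fold change 0.07, SE 0.15), within the spread between hens, and its relative CMC4 was at 0.29 (SE 0.50, looser fit). In the SAM complex, which inserts outer membrane barrels handed over by small TIMs, MTX2 was at 0.38 (SE 0.39) and DNAJC11 at 0.56 (SE 0.83, looser fit).

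Carriers of the inner membrane are cargo of the small TIMs. Of 21 carrier genes with a row 3 were tested, 1 negative and 2 positive, and none passed, beside 49.1% negative and 0.0564% passing over all tested genes. SLC25A12, a calcium-binding aspartate and glutamate carrier whose human protein is a reported cargo of the TIMM8A and TIMM13 complex, had 19, 18, 26, 16 and 30 counts at 50 weeks and 19, 28, 11, 15 and 17 at 35 weeks (log2 fold change 0.13, SE 0.27). SLC25A25 averaged 320 ± 171 CPM in the older and 384 ± 236 CPM in the younger hens (−0.26, SE 0.46), and SLC25A26, the carrier of S-adenosylmethionine, 180 ± 44.5 CPM in the older and 143 ± 63.3 CPM in the younger (0.34, SE 0.31). All 3 overlapped between the ages.

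Of the genes that act after import 5 were tested, 1 negative and 4 positive, none past the threshold. Over all tested genes 49.1% were negative and 0.0564% passed, so none of 5 is near the background. IMMP1L, an inner membrane peptidase, was at 0.22 (SE 0.21) and PMPCB, a subunit of the presequence peptidase, at 0.09 (SE 0.33). The matrix chaperone genes DNAJA3, HSPE1 and HSPD1 were at −0.14 (SE 0.22), 0.34 (SE 0.28) and 0.10 (SE 0.37). YME1L1, whose yeast relative degrades small TIMs that fail to fold, had 2 to 10 counts at 50 weeks and 1 to 6 at 35 weeks (0.51, SE 0.54, looser fit).

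**Figure D4:**
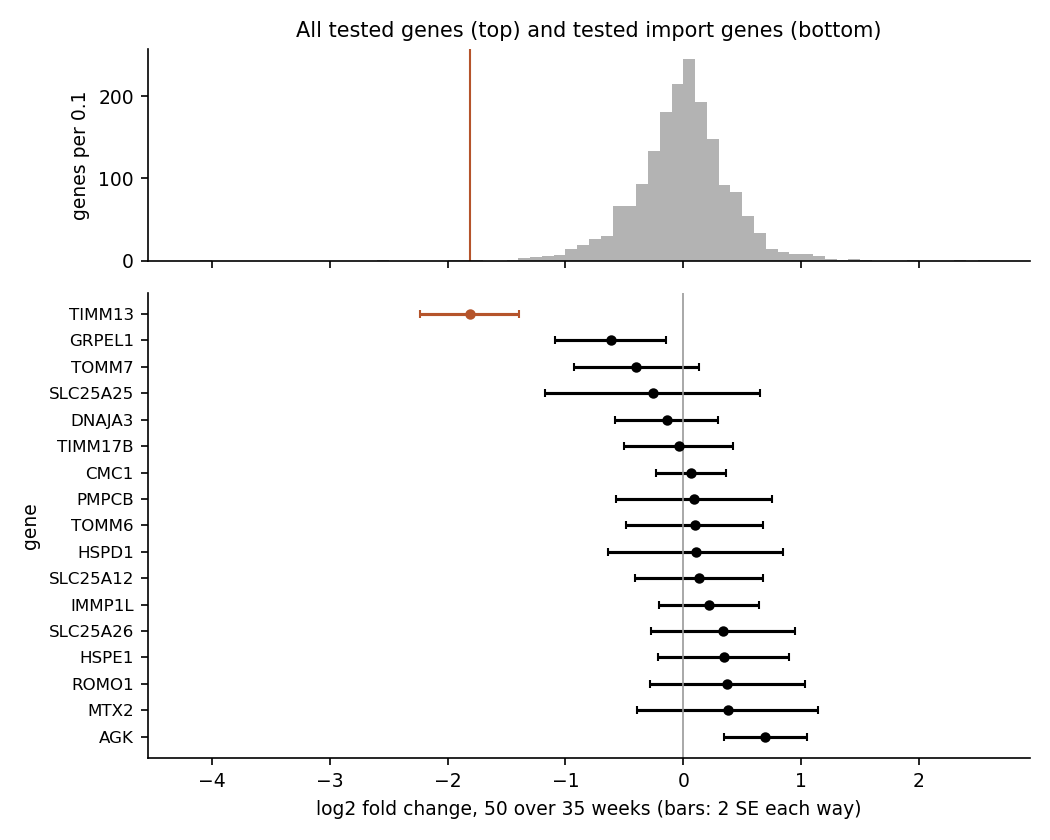
Top, log2 fold changes at 50 over 35 weeks of all 1773 tested genes, in bins of 0.1, with TIMM13 as a vertical line. Bottom, the 17 tested import genes with bars of 2 SE each way. TIMM13 lies at −1.81, GRPEL1 at −0.61, AGK at 0.70 and the other 14 lie between GRPEL1 and AGK.

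The 13 protein genes of the mitochondrial genome, which are not imported, had a summed level of 5640 ± 1338 CPM in the older and 7625 ± 2104 CPM in the younger hens (SD, n = 5 each), with overlap between the ages. Of 12 tested, all 12 were negative, beside 49.1% of all tested genes, with a median log2 fold change of −0.47. None passed in edgeR (background 0.0564%), DESeq2 (0.101%) or limma-voom (0.677%). In edgeR 6 had an unadjusted p under 0.05, beside 10.5% of all tested genes. Most of them are cut from shared transcripts, so they are not independent of each other.

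The counts of the genes that the RefSeq table places around TIMM13 differ from its own. Its nearest neighbour, the protease gene TMPRSS9, ends 597 bases away and had 1, 1, 3, 0 and 1 counts at 50 weeks and 2, 1, 2, 1 and 2 at 35 weeks. LMNB2, which encodes a nuclear lamin, starts 2551 bases away on the other side and had 2, 0, 5, 4 and 2 counts at 50 weeks and 3, 0, 2, 1 and 1 at 35 weeks. SPPL2C and the ribosomal protein gene RPL36, the other genes that the RefSeq table places within 50 kb, had 0 to 2 and 1 or 2 counts per library. So none of these 4 placed neighbours carried counts on the scale of TIMM13. None separated the ages, but at such low counts they could hardly have done so. Among tested genes a lower and separate placing was seen in 1.13%. Genes of the count table without a match in the RefSeq table had no position, so they were not searched. A neighbour with more counts may thus be missing here. The RefSeq table has no strand and no exons, so whether RNA that runs on from TMPRSS9 or LMNB2 enters the TIMM13 count was not tested. Other family members lie close to another gene too. TIMM17B, TOMM7 and TOMM70 overlap ADIPOR1, IL6 and LNP1 in the annotation, and TOMM6 lies 87 bases from USP49.

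**Figure D5:**
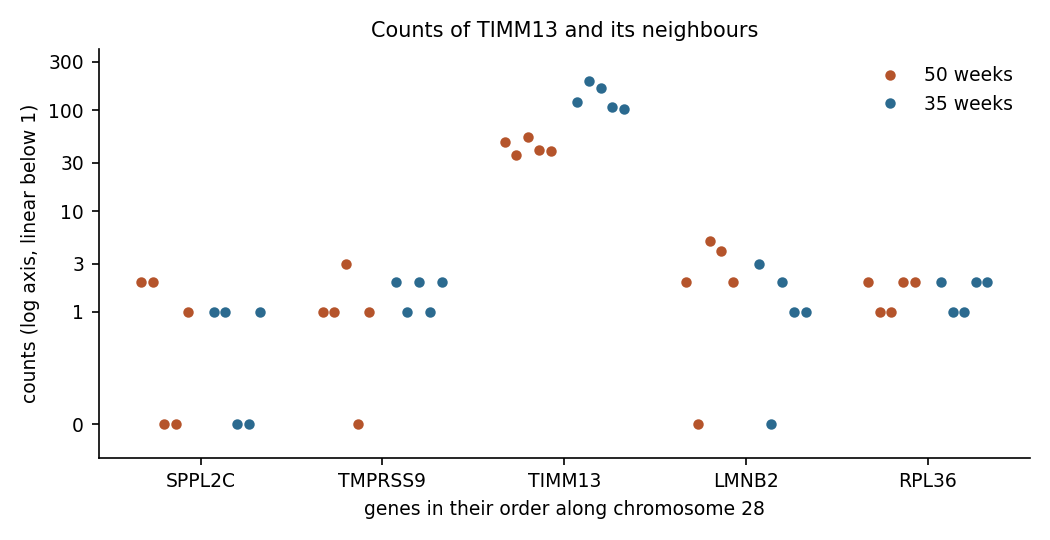
Counts per hen (vertical log axis, linear below 1) of TIMM13 and the 4 genes that the RefSeq table places within 50 kb, in their order along chromosome 28, with 50 weeks left of 35 weeks for each gene. Genes without a position are not shown. TIMM13 has 36 to 192 counts, and the neighbours have 0 to 5.

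Whole tissue was sequenced, so fewer cells that make an RNA and less of it per cell cannot be told apart. The 7 magnum gland markers, all detected, summed to between 25942 and 39574 CPM at 50 weeks and between 39303 and 52935 CPM at 35 weeks, so they were lower in the older hens with a slight overlap. The 5 markers of ciliated cells summed to 591 to 1167 CPM in the older and 887 to 1569 CPM in the younger hens. Of 5 B and plasma cell markers, POU2AF1 and TNFRSF13C were at 0, and the other 3 summed to 51.9 to 113 CPM in the older and 32.1 to 85.8 CPM in the younger hens. All 5 smooth muscle markers with a row summed to 120 to 173 CPM in the older and 107 to 276 CPM in the younger hens, and the 5 of endothelium to 491 to 942 CPM in the older and 564 to 978 CPM in the younger hens. The 5 fibroblast markers summed to 19.3 to 22.5 CPM in the older and 5.34 to 58.2 CPM in the younger hens. Of the T and NK cell markers CD3D was at 0, and the other 4 summed to 59 to 402 CPM in the older and 131 to 204 CPM in the younger hens. Of the macrophage markers MARCO, C1QA and C1QB were at 0, and the other pair summed to 42.1 to 78.5 CPM in the older and 40.7 to 69.5 CPM in the younger hens. The 3 haemoglobin genes of erythrocytes summed to at most 39.3 CPM in the older and 9.04 CPM in the younger hens. The ages overlapped in each of these sums. The part of cell composition in the TIMM13 difference was not tested.

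The genes with a profile most like that of TIMM13 were sought among 1270 tested genes with a symbol, by Pearson's r of log2 CPM over the 10 libraries. The highest were OVALX (r = 0.897), TF (0.893), LRRN3 (0.892), OVALY (0.89) and GALM (0.889). OVALX and OVALY are relatives of ovalbumin, TF is ovotransferrin, another egg white protein, GALM is an enzyme of galactose breakdown and LRRN3 a membrane protein with leucine-rich repeats. All 5 were lower at 50 weeks in the mean, with log2 fold changes between −1.70 and −0.34, so r over both ages holds the age difference itself. GRPEL1 came the seventh (r = 0.863). TOMM7, TIMM17B and TOMM6 had r of 0.596, 0.207 and 0.0036, and AGK had −0.765.

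When each age's mean was taken out first, other genes came to the top. REXO4 (r = 0.898), KLHDC2, PAOX, CSPP1 and TMEM97 followed the deviations of TIMM13 most closely, with r of 0.827 or more, and none had a log2 fold change beyond 0.21 in size. With Spearman's rank correlation, 1 of the first 5 and 2 of the second 5 stayed in the list. With 10 libraries and 1270 genes these are descriptions of the profiles, in which all genes share the depth and scaling of each library.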

How the data were processed

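Total RNA of 10 whole magnum samples, extracted with TRIzol and made into libraries with a directional kit, was sequenced, per the labels' protocols. Trimmomatic, HISAT2, Cufflinks, DESeq2 and the build GRCg7b appear, without versions, among the tools of the submitters' processing notes. Not given in the sources used here are the counting tool, whether it used strand, and the annotation release. The deposited table holds raw counts of 29558 Ensembl genes, of which 15792 had a count and 12826 matched the RefSeq gene table by ID. The authors' deposited table of 203 genes gives a mean normalised count (a signal), a log2 fold change with its SE, a Wald score and p-values. Its fold changes run 35 over 50 weeks, a direction checked on the counts of all 203. It lists 0 of the other TIMM and TOMM genes, but it holds only 203 of the 29558 genes, so nothing is read from their absence.

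The test was edgeR 4.0.16 under R 4.3.3 (genes kept by filterByExpr at a minimum count of 10, TMM, robust quasi-likelihood, Benjamini-Hochberg adjustment over 1773 genes, threshold 0.05). The common biological coefficient of variation was 0.285. The SE of an edgeR fold change was derived as its size divided by the square root of the quasi-likelihood F statistic. The main edgeR fit was tried on counts simulated for the tested genes with known changes, and the alternative fits were not. CPM used library totals times TMM factors, and profile likeness used log2 CPM with a prior count of 2. Alternatives were RLE factors, library totals, no filter, a looser filter (5 or more libraries with at least 1 CPM), limma 3.58.1 (voom with sample weights), DESeq2 1.42.0, a replicate block, each library left out, and, added after seeing the data, leaving out the 3 libraries that stood apart.

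The gene, its lists and the tests were chosen with earlier results of these data known. Named are TIMM13, family members with 10 or more counts in all, genes that the RefSeq table places within 50 kb, the 2 members of highest mean CPM of each list, list members past the threshold, and the 5 genes most alike by each measure. Other genes were named for their role after their values were seen. The p-values rest on the spread between hens, whose libraries all differed beyond sampling noise. The fits share their estimate of this spread across genes, so a p does not measure the spread of its own gene alone.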

Additional observations from a re-analysis of the deposited data

Results flagged for a closer look

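In TIMM9, replicate 1 at 50 weeks stood apart below the other 4 hens of its age. It had 4.91 CPM, which is 1 count, and the other 4 had 11.6 to 13.5 CPM, which is 3 counts each. The flag thus rests on very few counts, and the narrow range of the other 4 reflects library size. Of 24 groups checked, for 12 genes at both ages, this was the 1 that stood out, and chance marks about 1 group in 20.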

How the results depend on the processing

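The log2 fold change of TIMM13 stayed between −1.89 and −1.68 over 20 alternatives. These reuse the hens it was chosen on and are no support for its fall. The number of genes past the threshold was 1 in edgeR, 36 without a filter on low counts, 40 with the looser filter, 16 in DESeq2, 12 in limma-voom and 43 without the 3 libraries that stood apart, a setting added after seeing the data. It was 1 to 12 when each library was left out in turn, highest without replicate 4 at 50 weeks, and it was 2 when replicate 5 at 50 weeks or, at 35 weeks, replicate 1 or 4 was left out. With the replicate block it was 2. Deviations of same-numbered libraries correlated at −0.115 to 0.098, and 2 of 5 libraries at 50 weeks were closest to their own number. With 5 pairs these values cannot settle whether the replicate numbers pair the samples. None of the other TIMM and TOMM genes passed under any of the 18 alternatives run, which reuse the same hens. All but the fit without a filter, the looser fit and DESeq2 tested only 3 or 4 of the 16 genes. At most 2.35% of all genes passed in any fit, so 0 is near the background. Family members with a negative fold change numbered 2 of 3 in edgeR, 1 with library totals as the only scaling, 8 of 16 without a filter, 7 of 12 with the looser filter, 9 of 16 in DESeq2, 1 without the 3 libraries, and 2 to 4 with each library left out, highest without replicate 1 at 50 weeks. Among import genes 1, AGK, passed without a filter (beside 0.228% of all genes in that fit), with the looser filter (1 of 60, beside 0.506%) and in DESeq2 (0.101%). It also passed in limma-voom (0.677%) and without the 3 libraries (2.35%). Leaving out each library gave 0 to 1, the call coming without replicate 4 at 50 weeks (0.654%). With each library left out, the log2 fold change lay between −0.11 and 0.095 in TIMM17B, positive at 50 weeks without replicate 4 (0.02) or 5 (0.09) and at 35 weeks without replicate 2, and between −0.18 and 0.26 in TOMM6, negative without replicate 1 at 50 weeks. TIMM17B was also positive with library totals (0.0054) and without the 3 libraries (0.18). Library totals moved the median of all genes to 0.05 and the negative share to 43.5%. The fits without a filter or with the looser one test more genes, those that leave out libraries rest on fewer hens, and the cause of the other changes was not tested. Depth limits all family members under about 10 counts per library.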
